A study of Mus musculus with 8 samples.

Results

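The 4 control libraries of this series are mouse induced regulatory T cells (Tregs): naive CD4+ T cells from the spleen of mice of genotype B6, cultured for 3 days under Treg polarizing conditions without oxPAPC. They were taken as the count columns of the 4 samples labelled as controls, 4 of the 8 libraries of the series. The other 4 received oxPAPC, an oxidized phospholipid mixture, and are not compared here. RNA was sequenced after poly(A) selection. Every value below describes levels in these cultures and the spread between the 4 libraries, named control 1 to control 4 after their labelled replicate numbers. The labels do not give the age of the mice, the cytokines in the medium, the purity of the cells, or whether each library came from its own mouse or culture, so the spread between libraries may be technical.

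Tregs are CD4+ T cells that restrain immune responses. The transcription factor Foxp3 defines them, and naive CD4+ T cells can be made to express it in culture by T cell receptor stimulation with TGF-beta and interleukin 2. They carry the high-affinity interleukin 2 receptor, whose alpha chain is encoded by Il2ra, and the inhibitory receptor Ctla4. Their metabolism differs from that of effector T cells and shifts with activation, proliferation and the lipids around them.

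Levels are given as CPM, counts scaled to 1000000 protein-coding counts per library. Orders and folds between genes are given as CPM per kilobase (kb) of merged exon, since a longer mRNA yields more reads. They depend on the length used: with the coding length in its place, 48 of the 86 ratios between neighbours in the ordered sets moved by over 1.5 times, and the coding-length value stands beside each such fold printed. Of the 13133 protein-coding genes in the table, 11350 (86.4%) reached 1 CPM in each of the 4 libraries and are termed detected. In all 4 libraries 8448 reached 10 CPM, 1618 (12.3%) reached 100 CPM and 81 reached 1000 CPM. These shares are the background for the counts of detected genes in the lists below. The detected genes had a median level of 33.0 CPM and a median coefficient of variation (CV, the SD over the mean) of 16.3%. Library totals ran from 16416538 to 21619731 counts, of which 61.8% (control 2) to 81.4% (control 3) fell on protein-coding genes, and 1 CPM corresponded to 10.1 to 16.4 counts. The rest was led by Gm26917, annotated as a long noncoding RNA gene, which took 8.59% of all counts in control 3 and 29.1% in control 2. What RNA these reads came from was not tested. Rn7sk took 2.73% to 3.38% of all counts, and mt-Rnr2, a mitochondrial ribosomal RNA gene, 0.944% to 3.57%. Control 3 had the lowest correlations of log2 CPM across genes, 0.966 to 0.983 with the others, against 0.985 to 0.990 among the other 3 libraries. By the median absolute log2 difference it was 0.345 from control 2 and 0.321 from control 4, but control 1 was closer to control 3 (0.245) than to control 4 (0.263). It was the highest library for 35.8% of the detected genes, against 10.7% for control 1, 22.9% for control 2 and 30.7% for control 4.

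The 6 genes used to mark Tregs were detected in every library. Tnfrsf9, which encodes the costimulatory receptor 4-1BB, had 999, 959, 724 and 868 CPM in control 1 to control 4, a mean of 888 ± 122 (SD, n = 4). Il2ra had 624, 559, 942 and 767 CPM, a mean of 723 ± 169.8 (SD, n = 4), and was highest in control 3. Tnfrsf18, which encodes the receptor GITR, had 386, 362, 311 and 369 CPM and the smallest CV of the 6 markers, 8.98%. Foxp3 itself had 153, 192, 212 and 265 CPM, a mean of 205 ± 46.9 (SD, n = 4), and was highest in control 4, not in control 3. Ctla4 had 189.6, 153, 285 and 169 CPM, and Ikzf2, which encodes the zinc finger factor Helios, had 166, 163, 295 and 160.2 CPM. For both genes control 3 lay above the other 3 libraries, which for Ikzf2 lay between 160 and 166 CPM. Without control 3 the means were 203 CPM for Foxp3, 650.1 for Il2ra, 171 for Ctla4, 163 for Ikzf2, 372 for Tnfrsf18 and 942 for Tnfrsf9 (n = 3). In bulk RNA, fewer cells that express a gene and less RNA of it per cell cannot be told apart.

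**Figure D1:**
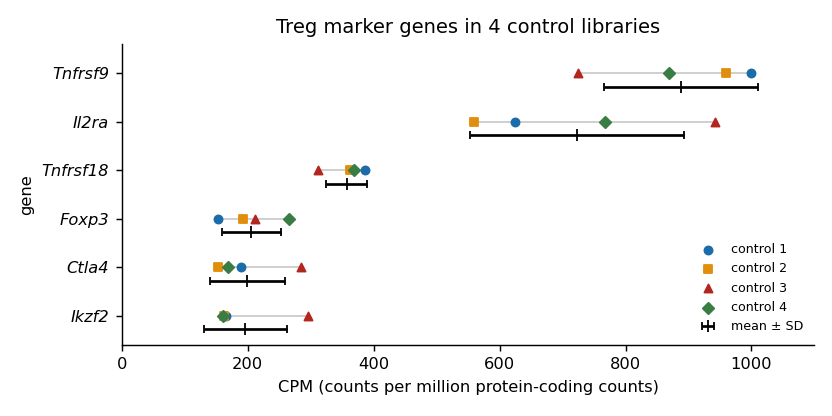
CPM (horizontal axis) of the 6 Treg marker genes (vertical axis), 1 symbol per control library, with the mean and SD of the 4 libraries as a bar under each row. Control 3 is the highest library for Il2ra, Ctla4 and Ikzf2 and the lowest for Tnfrsf9 and Tnfrsf18, while Foxp3 has 153, 192, 212 and 265 CPM in control 1 to control 4.

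Per kilobase the order of the markers was Tnfrsf9 at 326 ± 44.9, Tnfrsf18 at 234 ± 21, Il2ra at 127 ± 29.7, Ctla4 at 85.5 ± 25.5, Foxp3 at 44.9 ± 10.2 and Ikzf2 at 16.9 ± 5.69 CPM per kb (SD, n = 4). Tnfrsf9 exceeded Tnfrsf18 in all 4 libraries without overlap of their ranges. By coding length Il2ra comes before Tnfrsf18, also without overlap, and the rest of the order is the same.

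The start regions of these markers are shown because T cell receptor and interleukin 2 signals, which Tregs made in culture commonly receive, reach genes through NFAT and STAT factors, although the labels do not give the medium used here. RefSeq start sites on GRCm38.p6 were found for 5 of the 6 markers, and Ikzf2 had no entry. Each stretch begins 250 bases before the start on the plus strand, and that of Foxp3 ends before the first exon of Foxp3 itself that GENCODE M21 gives in that window. Capitals mark matches on either strand to the NFAT core GGAAA (or TTTCC), searched together with TATAAA, the AP-1 motif TGANTCA, the STAT motif TTCNNNGAA, the RUNX motif TGTGGT and the ETS motif CCGGAAGT.
Foxp3, chrX:7579426-7579566 (+): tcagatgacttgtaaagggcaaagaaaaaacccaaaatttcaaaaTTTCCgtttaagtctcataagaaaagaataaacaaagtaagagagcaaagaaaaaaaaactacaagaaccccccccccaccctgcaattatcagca
Il2ra, chr2:11642542-11642791 (+): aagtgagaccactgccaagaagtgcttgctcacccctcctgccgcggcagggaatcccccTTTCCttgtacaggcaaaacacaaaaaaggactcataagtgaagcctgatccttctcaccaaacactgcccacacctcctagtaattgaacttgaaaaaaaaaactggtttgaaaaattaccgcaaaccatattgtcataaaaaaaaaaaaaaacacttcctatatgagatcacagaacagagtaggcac
Ctla4, chr1:60908775-60909024 (+): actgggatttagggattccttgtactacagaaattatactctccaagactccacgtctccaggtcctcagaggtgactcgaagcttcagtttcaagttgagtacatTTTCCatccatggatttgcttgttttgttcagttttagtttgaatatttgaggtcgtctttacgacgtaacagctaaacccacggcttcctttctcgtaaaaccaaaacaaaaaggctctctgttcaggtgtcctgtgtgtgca
Tnfrsf9, chr4:150919905-150920154 (+): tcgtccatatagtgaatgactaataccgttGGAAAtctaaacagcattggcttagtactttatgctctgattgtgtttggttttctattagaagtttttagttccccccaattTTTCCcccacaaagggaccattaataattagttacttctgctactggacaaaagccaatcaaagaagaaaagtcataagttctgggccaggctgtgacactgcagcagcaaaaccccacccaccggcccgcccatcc
The NFAT core was found in each of these 4 stretches, and it occurs in 55.6% of all 32851 RefSeq windows of 250 bases. The Foxp3 stretch overlaps an exon of the noncoding gene Flicr. The whole window of 250 bases before this Foxp3 start also holds TATAAA, 32 bases before the start, a motif found in 12.4% of all windows and in 6.16% of those of detected genes. The STAT motif, found in 7.02% of all windows, was matched at a second start of Foxp3, at a second start of Tnfrsf9 and before Tnfrsf18. A match is a description of the letters in the window.

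Among 7 transcription factors that set T helper lineages, Foxp3 and Gata3 were the only ones with a mean above 10 CPM per kb. Foxp3, the Treg factor, had 33.3, 41.9, 46.3 and 57.9 CPM per kb in control 1 to control 4. Gata3, the type 2 factor that Tregs also use, had 32.8, 40.6, 44.7 and 47.5 CPM per kb, and was lower than Foxp3 in each library although the ranges overlapped. Rora, which encodes a nuclear receptor of the Th17 programme, came next at 7.04 ± 0.997 CPM per kb, below Gata3 in all 4 libraries without overlap. Maf had 4.27 ± 0.678, Tbx21 (the type 1 factor T-bet) 2.29 ± 0.234, Eomes 1.5 ± 0.174 and Bcl6, the follicular helper factor, 0.903 ± 0.171 CPM per kb. No neighbours in this order from Gata3 down to Bcl6 overlapped, but by coding length Tbx21, Eomes and Bcl6 did. Prdm1, which encodes Blimp1, a factor of effector Tregs, stood at 1.35 CPM. Hlx and Ascl2 had no row in the table, which keeps only genes with at least 5 counts in 2 or more of the 8 libraries.

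**Figure D2:**
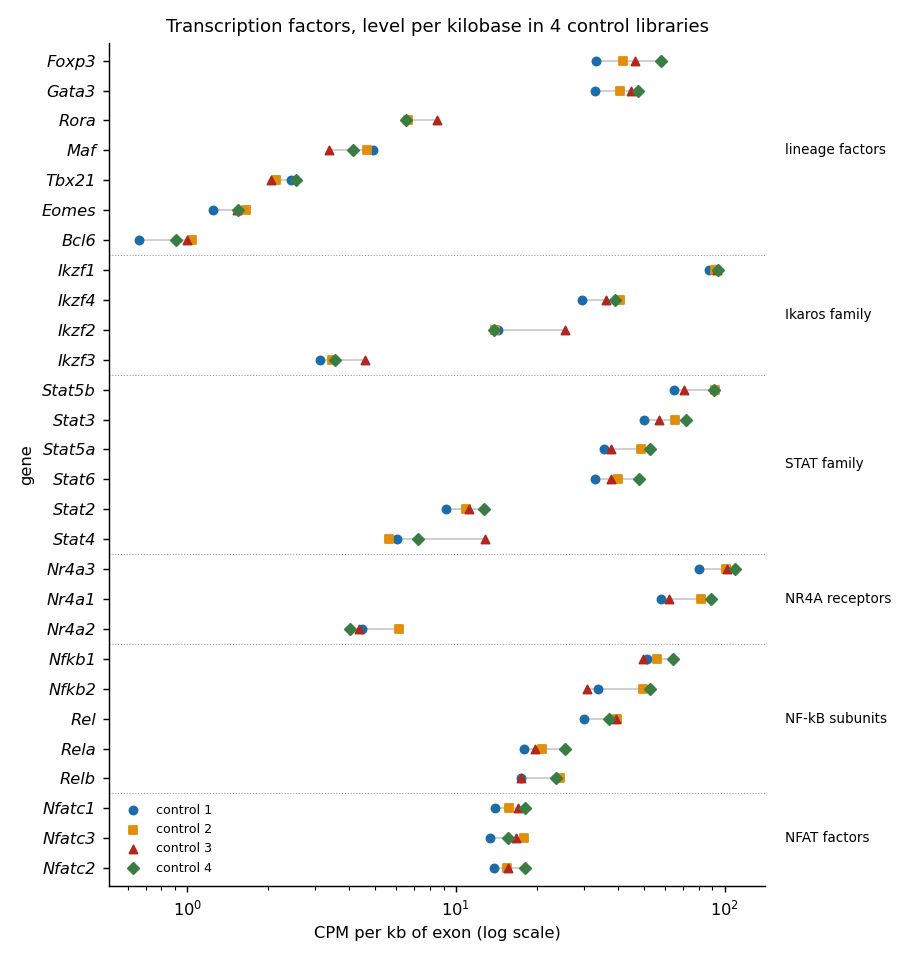
Level per kilobase of exon (horizontal log axis) of transcription factors grouped by family (vertical axis), 1 symbol per control library. Foxp3 and Gata3 average 44.9 and 41.4 CPM per kb, and Bcl6, last of the lineage factors, 0.903.

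All 30 members of the list of factors known to build or hold the Treg lineage were detected, against 86.4% of all protein-coding genes. In each library 21 of them had 100 CPM or more, against 12.3% of all protein-coding genes. The list's median level was 22.4 CPM per kb against 6.96 for all detected genes. That level was not particular to this list: the medians were 22.3 for quiescence and identity factors, 19.8 for activation factors and 9.84 for T helper and effector factors. Nr4a3, a nuclear receptor induced by T cell receptor signals that promotes Foxp3 expression, led them per kilobase at 98.3 CPM per kb and had 482, 603, 611 and 657 CPM. Its relative Nr4a1 had 204, 286, 218 and 313 CPM, and Nr4a2 was 15.3 times lower than Nr4a1 per kilobase. Stat5b, which carries the interleukin 2 signal, had 359, 508, 391 and 506 CPM. In the STAT family the order per kilobase was Stat5b at 79.6, Stat3 at 61.1, Stat5a at 43.6 and Stat6 at 39.7, each higher than the next in all 4 libraries but with overlapping ranges. Stat6 was 3.62 times above Stat2 (11), and Stat2 was higher than Stat4 (7.93) in 3 libraries with overlapping ranges. By coding length Stat5b and Stat3 exchange places, and Stat5a and Stat6 do not overlap. Stat4, which answers interleukin 12, had the widest spread of its list, with 23.4, 21.9, 49.5 and 28 CPM and its high value in control 3.

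In the Ikaros family, Ikzf1 was highest at 92 ± 3.12 CPM per kb and varied least, with 506, 533, 541 and 546 CPM. Ikzf4, which encodes Eos, a partner of Foxp3, had 36.3 ± 4.94, Ikzf2 16.9 ± 5.69 and Ikzf3 (Aiolos) 3.69 ± 0.639 CPM per kb. No neighbours in this order overlapped, but by coding length Ikzf4 and Ikzf2 did, with Ikzf4 the higher in 2 libraries. Among the factors of quiescence and T cell identity, Tcf7 (TCF1) led with 243, 339, 321 and 345 CPM, and all 23 members were detected. Klf2, which keeps T cells in circulation, had 95.1, 159, 80.9 and 129 CPM and its lowest value in control 3. Bach2, which holds back effector genes, had a mean of 224 ± 10.8 CPM, and Lef1 of 188 ± 34.2 CPM (SD, n = 4). The list includes Foxo1 at 23.3 ± 3.2 CPM per kb, higher in all 4 libraries than Foxo3 at 20.6 ± 3.84 with overlapping ranges.

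The activation factors were led by Junb, an AP-1 subunit, with 419, 508, 325 and 517 CPM and 192 CPM per kb. Jund had 149.5, 220.3, 90.5 and 214 CPM, with control 3 lowest. The immediate early gene Fos stood at 17.3 CPM and Fosb had 42.9, 31.6, 19.9 and 17.7 CPM, the largest CV of its list. Among the NF-kB subunits Nfkb1 was highest at 55.2 CPM per kb, followed by Nfkb2 at 41.7, Rel at 36.6, Rela at 21 and Relb at 20.7. Of these neighbours only Rel and Rela did not overlap. By coding length Rel comes before Nfkb2 and Relb before Rela, and Nfkb2 overlaps neither Nfkb1 nor Rel. Nfatc1, Nfatc3 and Nfatc2 could not be ordered, with means of 16.2, 15.9 and 15.8 CPM per kb and overlapping ranges, though by coding length Nfatc1 lay below Nfatc3 without overlap. Irf8 had a mean of 331 CPM and Irf4 of 159 CPM, while Irf7, an interferon-induced factor, had 5.57 CPM. Myc, a driver of growth, had 139.8 ± 29.9 CPM (SD, n = 4).

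Transcripts of most cytokines that define effector T cells were near or under the detection limit. Il2, Il6, Il18, Il22, Il27, Il1b and Il15 had no row. Of the 17 effector cytokine genes with a row, 8 were detected, and 4 of those reached 10 CPM in every library. These 4 were Mif with 95, 65.8, 122 and 107 CPM, Il16 with 74.9, 77.4, 98.1 and 83, Lif with 66.8, 50.6, 55 and 77.3 and Osm with 24.5, 22.4, 27.2 and 35.4 CPM. Mif encodes a factor that most tissues make, Il16 a ligand of CD4, and Lif and Osm are members of the interleukin 6 family. Ifng, the type 1 cytokine, had 5.2, 1.48, 3.94 and 5.38 CPM, and control 2 was lowest. Il9 had 4.33, 1.08, 4.89 and 2.08, Il24 3.12, 2.36, 2.29 and 1.96, Il17f 2.34, 2.66, 2.54 and 1.16 and Csf2 1.91, 1.08, 1.14 and 0.489 CPM. Il4 had 0.52, 0.493, 1.08 and 0, Il13 1.04, 0.69, 0.699 and 1.16, Il17a 0.78, 0.197, 0.318 and 0.122 and Il5 0.0866, 0.0985, 0.318 and 0.183 CPM, where 3 counts correspond to 0.183 to 0.296 CPM. Il21 was counted in control 3 alone.

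**Figure D3:**
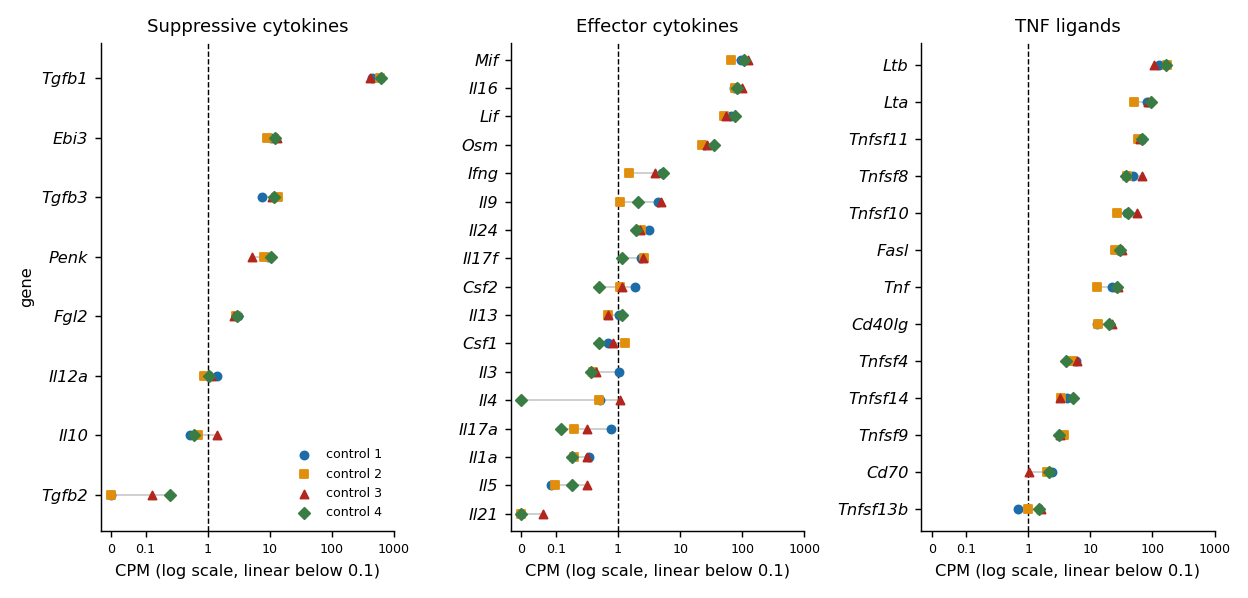
CPM (horizontal axis, log scale above 0.1 and linear below it) of cytokine genes with a row in the table (vertical axes), 1 symbol per control library, with a dashed line at the detection limit of 1 CPM. Tgfb1 has 417 to 618 CPM, Mif, Il16, Lif and Osm are the effector cytokine genes at 10 CPM or more in every library, and Ltb has 106 to 172 CPM.

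The suppressive cytokines were represented almost wholly by Tgfb1, with 443, 594, 417 and 618 CPM, a mean of 518 ± 103 (SD, n = 4). Per kilobase Tgfb1 was 31.9 times above Tgfb3, which had 7.62, 13.4, 10.9 and 11.7 CPM. Tgfb2 had 0, 0, 0.127 and 0.245 CPM, at or under 3 counts in 3 libraries. Il10 had 0.52, 0.69, 1.4 and 0.611 CPM and did not reach 1 CPM in 3 of the 4 libraries. Of the chains of interleukin 35, Ebi3 had 10.5, 8.87, 12.9 and 11.9 CPM and Il12a 1.39, 0.887, 1.14 and 1.04 CPM. Penk, which encodes the precursor of enkephalins, had 9.53, 7.98, 5.15 and 10.3 CPM, and Fgl2, a secreted suppressor, 3.03, 2.86, 2.6 and 3.0 CPM. Areg, a repair factor of tissue Tregs, had no row.

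Among the 13 TNF ligand genes with a row, 12 were detected. Ltb, whose product forms lymphotoxin with Lta, had 129, 172, 106 and 165 CPM, and Lta had 80.7, 49.9, 84.8 and 96 CPM. Tnfsf11, which encodes RANKL, had 68.8, 58.5, 64.1 and 67.7 CPM, and Fasl, a death ligand, 28, 24.9, 32 and 30.1 CPM. Tnf had 22.6, 12.7, 27.4 and 26.4 CPM and Cd40lg, the helper ligand for B cells, 12.9, 13.3, 22.7 and 19.9 CPM. For Lta and Tnf control 2 was the lowest library by a wide margin. Of 14 chemokine genes with a row, 5 were detected. Cklf had 41.8, 37.8, 42.4 and 32.8, Ccl25 26.7, 21.7, 36 and 24.8, Ccl27a 15.7, 15.5, 9.21 and 11.7, Ccl22 7.54, 8.67, 4.95 and 5.56 and Xcl1 1.91, 1.58, 2.22 and 1.16 CPM. Ccl20 was at 0 counts in all 4 libraries, which allows up to 0.296 CPM in the shallowest of them.

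The interleukin receptors were led by the interleukin 2 receptor. Il2ra had 109, 97.9, 165 and 134 and Il2rb, the signalling beta chain, 97.7, 124, 93.3 and 138 CPM per kb in control 1 to control 4, so that each was the higher in 2 libraries. By coding length Il2ra was 2.76 times above Il2rb and higher in all 4. Il2rg, the common gamma chain that both need, was 4.96 times below Il2rb at 22.9 ± 3.38 CPM per kb without overlap. Il21r had 212, 215, 220.03 and 255 CPM, Il4ra 205, 239.8, 189 and 235 CPM and Il7r, the receptor chain for interleukin 7 that many Tregs hold low, a mean of 123 ± 31.1 CPM (SD, n = 4). Crlf2, the receptor chain for TSLP, had 59.1, 90.4, 36.8 and 77.4 CPM, lowest in control 3. The chains of the interleukin 10 receptor were close at 12.7 ± 1.94 (Il10ra) and 12 ± 1.64 (Il10rb) CPM per kb and exchanged order between libraries, whereas by coding length Il10rb was the higher in all 4 without overlap. Il12rb2 and Il12rb1, which form the interleukin 12 receptor, had 44.1 and 42.2 CPM. Il1rl1, the receptor for interleukin 33 on tissue Tregs, had 0.99 CPM, and Il23r had no row.

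In the TGF-beta pathway 27 of 29 genes were detected. The signalling receptors had 32 ± 3.26 CPM per kb for Tgfbr2 and 20.9 ± 4.24 for Tgfbr1, and the coreceptor Tgfbr3 had 11.3 ± 1.0, with no overlap between neighbours. Smad7, an inhibitory SMAD that the pathway induces, had 384, 513, 264 and 360.5 CPM. Per kilobase it stood at 84.1, against 9.86 for Smad3 and 7.25 for Smad2, the receptor-regulated SMADs. By coding length Smad3 and Smad2 overlapped, and Smad3 was the higher in 2 libraries. The repressors Ski and Skil had 308, 439.7, 288 and 437 and 343, 386, 431 and 333 CPM. Furin, the protease that cleaves the TGF-beta precursor, had 338, 441, 296 and 507 CPM. Lrrc32, which encodes GARP, the Treg surface dock for latent TGF-beta, had 109, 96.8, 124 and 122 CPM, while Itgb8, the integrin chain that frees it, had 1.83 CPM. Acvr2a, an activin receptor, had 12.3, 9.85, 20.7 and 10.5 CPM with its high value in control 3.

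Interferon receptors and Janus kinases were all detected (12 of 12 genes). Ifngr1 was highest of the receptor chains at 53.3 ± 3.59 CPM per kb, 1.98 times above Ifngr2, while Ifngr2, Ifnar2 and Ifnar1 overlapped at 26.9, 26 and 23. By coding length Ifngr1 was 1.04 times above Ifngr2 with overlap, and Ifngr2 did not overlap Ifnar2. Jak3, which pairs with the common gamma chain, had 245, 349, 219 and 359 CPM, and Jak1, its partner, 252, 316, 331 and 342 CPM. Tyk2 was the lowest kinase at 8.04 ± 1.19 CPM per kb. The feedback inhibitors Cish and Socs1, both targets of STAT5, had 326, 299, 331 and 338 and 161, 208, 124 and 198 CPM.

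The TNF receptors of Tregs formed a graded series per kilobase. Tnfrsf9 at 326 was followed by Tnfrsf18 at 234 and Tnfrsf4 (OX40) at 200.5, and these last 2 overlapped although Tnfrsf18 was higher in each library. Tnfrsf4 was the steadiest of them, with 281, 274, 261 and 278 CPM. Tnfrsf1b, which encodes TNFR2, was 3.22 times below Tnfrsf4 (2.0 by coding length) and had 195, 283, 209 and 265 CPM. Tnfrsf13b, which encodes TACI, had 107, 116, 124 and 141 CPM. Tnfrsf8, which encodes CD30, had 1.02 CPM. Fas, a death receptor, had 31.3, 26.4, 53.2 and 26.5 CPM, with control 3 above the other 3 libraries.

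Of the 29 costimulatory and inhibitory receptor genes with a row, 27 were detected. Cd2, an adhesion receptor, led with 327, 227, 489.9 and 326 CPM. In the CD28 family the order per kilobase was Ctla4 at 85.5 ± 25.5, Pdcd1 (PD-1) at 62.8 ± 5.73, Cd28 at 21.4 ± 5.95, Icos at 20.6 ± 3.25 and Btla at 13.2 ± 3.27. Ctla4 was above Pdcd1 in all 4 libraries but their ranges overlapped, and Cd28 and Icos could not be ordered. By coding length Cd28 was above Pdcd1 and 1.93 times above Icos, in all 4 libraries without overlap, and Ctla4 did not overlap Pdcd1. Lag3 had a mean of 61.1 ± 14.2 CPM (SD, n = 4), and Tigit, an inhibitory receptor of effector Tregs, 7.76 ± 1.16. Havcr2, which encodes TIM-3, had 0.37 CPM, and Klrg1 had no row. Cd69, an early activation antigen, had 89.8, 63.6, 148 and 66.3 CPM and Cd83, a stabilizer of MHC class II and CD86, 84.5, 73.6, 109 and 67.7 CPM. Control 3 was the highest library for 21 of the 27 detected genes of the list, against 35.8% of all detected genes. The list's median log2 deviation in control 3 from the mean of the other libraries was 0.50. The members had a median GC content of 44.5% against 49.9% for all detected genes. The part of GC content in this result was not tested. Without control 3 the mean was 293 CPM for Cd2, 73.2 for Cd69 and 65.2 for Icos.

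Of 26 chemokine receptor and homing genes with a row, 22 were detected. Ccr7, the receptor for lymph node entry, led per kilobase with 492, 626, 551 and 558 CPM. Ccr8, Ccr4 and Ccr6, receptors for skin and mucosal sites, had means of 60.5 ± 11, 59.7 ± 4.06 and 45.9 ± 8.1 CPM (SD, n = 4), while Cxcr3, of type 1 inflammation, had 5.44 CPM and Ccr9, of the gut, 4.21 CPM. The leukocyte integrins Itgb2, Itgal and Itgb7 had 468, 599, 525 and 610.2, 370.3, 456, 313 and 458 and 270.4, 413, 211 and 360.4 CPM. Itgae, the alpha chain that pairs with Itgb7 and is induced by TGF-beta, had 11.4, 9.66, 18.5 and 11.1 CPM. Selplg, the selectin ligand, had 391, 463, 439 and 533 CPM. Cxcr6 had 10.9, 5.62, 13.3 and 5.38 CPM, the largest CV of this list.

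Among surface and effector molecules of Tregs, Lgals1 (galectin 1) had 618, 450.00, 601 and 502 CPM, Izumo1r (folate receptor 4) 456, 425, 407 and 485 CPM and Capg, an actin capper, 361, 322, 369 and 432 CPM. Nt5e (CD73), the ectoenzyme that makes adenosine, had 205, 182, 216 and 182 CPM and was 8.82 times above Entpd1 (CD39), the enzyme upstream of it, per kilobase, or 13.8 times by coding length. Nrp1, a marker of thymus-derived Tregs, had 69.9 CPM. Of the cytotoxic genes, Gzmb had 10.7 CPM, Prf1 0.365 CPM and Gzma had no row.

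All 27 genes of the T cell receptor complex and its signalling were detected. Cd3d led with 1019, 952, 727 and 735 CPM and was 10.6 times above Cd3e per kilobase (4.38 by coding length), while Cd3e at 44.5 and Cd3g at 39.8 could not be ordered and Cd247, the zeta chain, was lowest at 20.9. Cd4 had 497, 657, 606 and 741 CPM. The CD8 chain genes Cd8a and Cd8b1 had 2.6, 3.55, 3.24 and 2.2 and 6.15, 8.08, 8.77 and 8.8 CPM. The kinase genes Lck and Zap70 had 443 ± 50.4 and 302 ± 92.4 CPM, the adaptor Lat had 306, 386, 218 and 358 CPM, and Thy1 had 330.3, 319.7, 343 and 456 CPM. Themis, a thymocyte signalling gene, had 105, 74.6, 144 and 77 CPM with its high value in control 3.

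All 35 genes of glucose transport and glycolysis with a row were detected. Aldoa had 681, 891, 609 and 934 CPM and was 31.4 times above Aldoc per kilobase, with Aldoa taken from the higher of its 2 rows. Gapdh had 699, 827, 764 and 951, Pgk1 502, 468, 449 and 447, Ldha 634, 602, 562 and 680.4 and Pkm 536, 625, 561 and 819.9 CPM. Hk1, the housekeeping hexokinase, was 1.82 times above Hk2, the inducible one, and Hk2 26.5 times above Hk3 (43.3 by coding length), with no overlap. The platelet-type phosphofructokinase Pfkp at 17.8 ± 1.61 CPM per kb was above Pfkm at 12.7 ± 2.66 and Pfkl at 6.16 ± 1.02. By coding length the lower pair overlapped, and Pfkm was the higher in 1 library. Eno1 at 104 ± 18.6 was higher than Eno3, the muscle enolase, at 89.8 ± 8.88 in every library with overlapping ranges, and Eno2 was 10.6 times below Eno3. By coding length these folds were 3.33 for Eno1 over Eno3, without overlap, and 3.98 for Eno3 over Eno2. Ldha was 6.84 times above Ldhb (13.4 by coding length). The glucose transporter Slc2a1 had 13.7 ± 1.62 CPM per kb, above Slc2a6 at 6.1 ± 0.502 and Slc2a3 at 3.22 ± 0.335, which exchange places by coding length. The lactate exporter Slc16a3 was 1.7 times above Slc16a1. Mpc1, a chain of the mitochondrial pyruvate carrier, had 22.2, 19.1, 31.4 and 18.3 CPM, the largest CV of the list. Control 4 was the highest library for 22 of these 35 genes, against 30.7% of all detected genes, and the median GC content of the list was 52.8%.

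**Figure D4:**
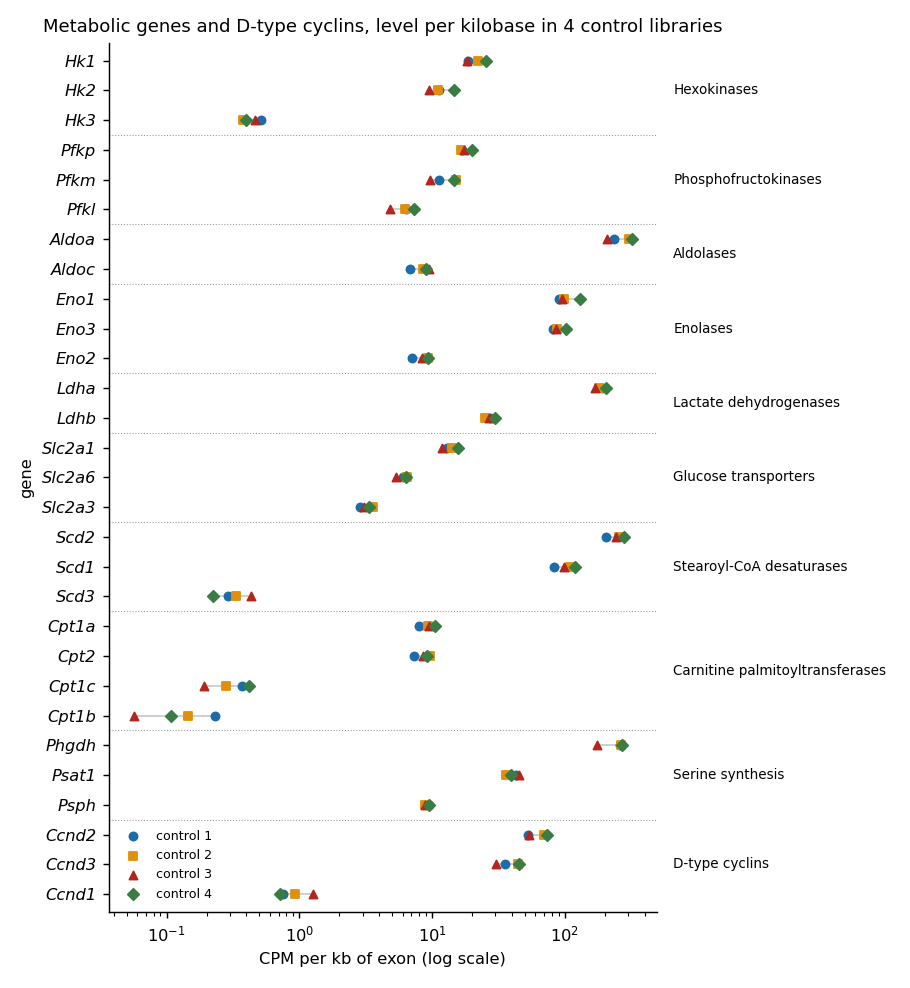
Level per kilobase of exon (horizontal log axis) of 9 sets of metabolic genes and of the D-type cyclins (vertical axis), 1 symbol per control library. The first gene of each set lies above the last in every library, with the widest gap for Scd1 against Scd3 and the narrowest between Cpt1a and Cpt2 among neighbours in these sets.

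In the tricarboxylic acid cycle all 25 genes were detected, led per kilobase by Mdh1 with 192, 204, 247 and 238 CPM. Sdhd, a membrane subunit of succinate dehydrogenase, was among the 3 highest with 112, 84, 106 and 80.1 CPM. Acly, which exports citrate carbon to lipid synthesis, had 177, 209, 216 and 272 CPM, and Pck2, the mitochondrial enzyme of phosphoenolpyruvate synthesis, 126, 201, 108 and 172 CPM. Transketolase (Tkt) led the pentose phosphate pathway with 309.6, 367, 342 and 438 CPM, while G6pdx, its entry enzyme, had 21.4 CPM. The 40 nuclear genes of oxidative phosphorylation were all detected, with a median of 80.6 CPM per kb against 13.7 for glucose transport and glycolysis. Without division by length the medians were 156 and 69.6 CPM, so this contrast depends on gene length and on the members listed. Cox4i1 had 1076, 821, 708 and 784, Cox6b1 448, 373, 313 and 312, Cox6a1 387, 498, 187 and 349 and Atp5e 1014, 808, 564 and 780.04 CPM. The 40 nuclear genes summed to 9753, 8811, 7939 and 8702 CPM in control 1 to control 4. Transcripts of the mitochondrial genome summed to 21281, 10197, 24514 and 7227 CPM, so that control 1 and control 3 stood above the other 2 libraries. The cytochrome oxidase gene mt-Co1 had 10218, 4822, 13707 and 3432 CPM, and mt-Cytb 1728, 709, 1916 and 633 CPM. The neighbours mt-Co2 and mt-Co3 were listed at only 16.9 and 8.98 CPM, and since near-identical nuclear copies of them exist, those values are uncertain.

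Of 14 genes of fatty acid synthesis with a row, 13 were detected. Scd2, a stearoyl-CoA desaturase, led per kilobase and had 1110.3, 1393, 1332 and 1519.6 CPM, and per kilobase it was 2.38 times above Scd1, which had 407, 539, 482 and 589.6 CPM. Fasn had 370.3, 508, 338 and 562 CPM, and the acetyl-CoA carboxylase Acaca was 5.89 times above Acacb per kilobase (10.8 by coding length). Srebf2, the regulator of sterol genes, had 464, 671, 457 and 679.8 CPM and was 1.81 times above Srebf1, which had 219, 299, 196 and 272 CPM. All 28 genes of cholesterol synthesis and uptake were detected, among them Insig1 with 173, 187, 199 and 195 CPM and Cyp51 with 264, 305, 259 and 296 CPM. Fdps was listed at 12.8 CPM, and its processed copies make that value uncertain. For fatty acid oxidation 26 of 28 genes were detected with a median of 11.3 CPM per kb. Cpt1a, which admits fatty acids to mitochondria, had 9.36 ± 1.08 CPM per kb and overlapped Cpt2 at 8.69 ± 1.06 (by coding length Cpt1a was 2.93 times higher without overlap), while Cpt1c and Cpt1b were at 0.315 and 0.136. Acsl5 and Acsl4 led the acyl-CoA synthetases with 30.2 ± 3.33 and 22.5 ± 2.14 CPM per kb.

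The 27 genes of serine, one-carbon and nucleotide synthesis were all detected. Phgdh, the first enzyme of serine synthesis, had 651, 663, 437 and 672 CPM, with control 3 well below the rest, and was 5.98 times above Psat1, itself 4.44 times above Psph per kilobase. By coding length these folds were 2.45 and 2.54. The mitochondrial Shmt2 was 8.3 times above the cytosolic Shmt1, and Impdh2 5.16 times above Impdh1. Odc1, which starts polyamine synthesis, had 526, 504, 429.8 and 544 CPM and Glud1 488, 577, 478 and 597 CPM. The amino acid carrier Slc7a5 had 124 ± 15.3 CPM and its partner Slc3a2 121 ± 17.2 CPM (SD, n = 4), while Slc7a11, the cystine carrier, had no row. In the mTOR pathway Pik3cd had 427, 672, 479 and 617 CPM and Ddit4, a stress-induced inhibitor, 263, 349.8, 217 and 342 CPM. Rps6kb1 had 32.1, 30.6, 57.1 and 34.2 CPM, with control 3 above the others.

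All 31 cell cycle genes with a row were detected, 20 of them at 100 CPM or more in each library. Mki67, the proliferation antigen, had 631, 769, 1075 and 879.9 CPM, Top2a 485, 627, 682 and 710.3 CPM and Pcna 280.01, 200.3, 340.5 and 272 CPM. Ccnd2 was the leading D-type cyclin, 1.6 times above Ccnd3 per kilobase, and Ccnd3 was 42.8 times above Ccnd1 (71 by coding length). Cdkn1b, the inhibitor p27, had 128 ± 11 CPM (SD, n = 4). Control 4 was the highest library for 20 of the 31 genes, against 30.7% of all detected genes. Control 1 was highest for none, against 10.7% of all detected genes. Cytosolic ribosomal proteins took 18.3% (control 4) to 24.8% (control 1) of protein-coding counts over 86 genes. Per kilobase the highest genes of all were Rplp1 at 8331, the elongation factor gene Eef1a1 at 7099.5, Rpl41 at 5754 and mt-Co1 at 5207 CPM per kb. Of the 20 highest, 14 encode ribosomal proteins or their fusion precursor (Rplp1, Rpl41, Rpl36, Fau, Rps23, Rpsa, Rpl37a, Rpl32, Rps12, Rps3a1, Rplp0, Rps14, Rps21 and Rps15). The histone genes H4c12, H4c6 and H1f2, at 3932, 3913 and 2912 CPM per kb, and Tmsb4x at 2789.9 complete them. Histone mRNAs mostly lack a poly(A) tail, so their levels in selected RNA do not measure their amount in the cell.

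The markers of other cell types were summed by list. The 11 B cell genes with a row summed to 19.8, 18.6, 27.4 and 17.5 CPM in control 1 to control 4, with Ms4a1 at 0.614 CPM. Ighm, the constant gene of immunoglobulin M, is on that list but outside the protein-coding rows, and had 60.8, 65.4, 89.2 and 78.9 CPM, more than that sum in each library. Macrophage and monocyte genes summed to 5.63, 4.93, 6.67 and 6.11 CPM over 5 genes with a row of 11, and Cd14, C1qa, C1qb and Itgam had none. No neutrophil gene of 7 had a row. The CD8 genes summed to 8.75, 11.6, 12 and 11 CPM. Among natural killer genes Nkg7, which activated T cells also express, had 96.9, 106, 73.9 and 87.7 CPM, and Ncr1, Klrb1c, Klra1 and Klre1 had no row. The dendritic cell list summed to 122, 137, 93.4 and 127 CPM, most of it Cd74 with 68.4, 91.6, 53.4 and 84.6 CPM, while H2-Ab1 had 10.7, 10.9, 6.42 and 7.7 and Itgax 0.139 CPM. Vim made up most of the stroma list at 1811 CPM and is a T cell gene as well, and Col1a1 and Epcam had 1.13 and 0.934 CPM. Of the plasma cell list Sdc1 alone had a row, with 3.73, 1.97, 2.35 and 2.2 CPM, and of the innate-like T cell list Zbtb16 alone, with 2.43, 1.38, 1.14 and 1.71 CPM. The erythroid and platelet list summed to 29.9, 21, 24.6 and 22.7 CPM.

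The spread between libraries was summarized by the biological coefficient of variation (BCV), the relative variation beyond counting error that edgeR estimates across genes. It was 0.176 over the 4 libraries and 0.134 without control 3. Without control 1, control 2 or control 4 it was 0.197, 0.177 and 0.187. The correlations of log2 CPM between libraries are across genes, which are not independent replicates.

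The libraries differed along the GC content of the genes. A library's deviation was taken as its log2 CPM minus the mean log2 CPM of the other libraries. The deviations of a gene therefore cancel over the 4 libraries, and a trend in 1 library brings an opposite one on average in the rest. Across 11345 detected genes it correlated with GC content at -0.59 in control 3, 0.51 in control 4 and 0.42 in control 2. In control 1 the correlation was -0.15. With the log2 length of the longest transcript, the deviation correlated at -0.28 in control 1 and at 0.014 to 0.13 in the other libraries. These correlations are descriptions over genes that share their libraries. In the fifth of genes with the lowest GC content (up to 43.9%), control 3 had a median deviation of 0.39, and in the fifth with the highest (from 55.7%) of -0.33. With an offset for GC content in the fit, an alternative added after seeing the data, the BCV was 0.146. The part of GC content in the level of any single gene was not tested.

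Among the 8743 genes with a mean of 10 CPM or more, predicted genes left out, the 12 with the largest ratio of their own to the trended dispersion included Hist1h4n, Rps27l, Nop10, Hist1h4m, mt-Nd2, mt-Nd4, Rpl31, Cox7b, Rbis, Zfp984 and mt-Nd1, and all 12 were highest in control 3. Of the 100 widest, 74 were highest and 21 lowest in control 3, against 35.8% and 29.3% of all detected genes. The 100 widest had a median GC content of 44.5% against 49.6% for the 8743 genes. The genes were ranked on these same libraries, so a library far from the rest tends to hold the extreme value among them. Rpl31, a ribosomal protein gene, had 831, 385, 1923 and 656 CPM, with a mean of 624 in place of 949 without control 3. Hist1h4n, one of several near-identical histone H4 genes, had 46.1, 20.4, 106 and 31.2 CPM, and 32.6 in place of 50.9 without control 3. Cox7b, a subunit of cytochrome oxidase, had 130.1, 57.8, 240.5 and 104 CPM. With the GC offset 4 of these 12 genes were again among the 12 widest, and 49 of the 100 widest again among the 100.

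At the other end the 12 genes with the smallest such ratio were Hip1, Cnr2, Fbxo44, Cxcr5, Hvcn1, Mob3c, Atg14, Bace1, Prr33, Rsph3b, Fpgt and Trim3, at means of 10.1 to 16.6 CPM. Cnr2, which encodes the cannabinoid receptor of immune cells, had 9.88, 10.2, 10.04 and 10.4 CPM, a CV of 2.25%. Its own BCV, which edgeR draws towards the trend, was 0.160 against 0.194 for the trend. All 12 genes lie near the limit of 10 CPM, where 1 CPM is 10.1 to 16.4 counts and counting error adds to a CV. A CV this small in 4 libraries therefore does not show that a gene varies less than others. Cxcr5, the receptor for B cell follicles, had 10.8, 11.9, 11.8 and 13 CPM. Of the 6 Treg markers, Tnfrsf18 (CV 8.98%) and Tnfrsf9 (13.8%) varied less than the median detected gene, and Foxp3 (22.8%), Il2ra (23.5%), Ctla4 (29.8%) and Ikzf2 (33.7%) varied more.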

How the data were processed

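The authors aligned reads with STAR 2.7.8a and counted them with featureCounts 2.0.2 on GRCm38.p6, per the submitters' processing notes, and ran DESeq2 1.30.1; the annotation release and the strand setting are not given in the sources used here. The deposited table holds raw read counts per gene for 8 libraries, per the file headers, and only the 4 control columns were used. RNA came from an RNeasy Plus extraction and a NEBNext poly(A) selection, per the labels' protocols.

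CPM were computed on each library's protein-coding counts (rows of biotype protein_coding in the table). Exon lengths came from GENCODE M21, matched by gene ID for 19296 of 19330 rows (99.8%). Genes at 1 CPM or more in each library were called detected. Dispersion was estimated with edgeR 4.0.16 (TMM scaling, intercept only); simulated counts with known dispersion were used to test the script. No test between groups applies to 1 group. Depth limits a count of 0 to 3 counts, which covers counting error only.

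The members and gene lists were chosen with earlier results of these data known. Named genes are all Treg markers, in each list the 5 highest per kilobase and the member of at least 5 CPM with the largest CV, all cytokine genes of 1 CPM or more, isozymes and receptor chains set in order (39 sets, chosen after levels were seen), the 20 highest genes per kilobase, and the 12 with the widest and narrowest dispersion for their level. Further genes were named after their values were seen, for their known roles, and a few that these rules name are not reported here. Alternatives covered the denominator, the scaling, the length, the detection limit, a GC offset and leaving out each library.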

Additional observations from a re-analysis of the deposited data

Results flagged for a closer look

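In 4 libraries, 1 value lay far from the other 3 for 9 of the named genes and 2 list sums, by Dixon's gap against the range. Chance alone gives about 1 such value in 20 groups, which would be 18 of the 361 groups tested, against the 11 found. Control 3 was the library apart for Ikzf2 (295 CPM against 160 to 166), Phgdh (437 against 651 to 672), Rora (112 against 84.9 to 86.5), Rps6kb1 (57.1 against 30.6 to 34.2), Icos (87.3 against 62.9 to 66.7) and Itga2b (7.94 against 6.50 to 6.70). Control 1 was lowest for Jak2 (133 CPM against 174 to 177) and Rsph3b (9.62 against 11.3 to 11.4). It was also lowest for the summed level of the Treg lineage factors (5243 CPM against 6228 to 6414) and of the T cell receptor complex and signalling genes (6549 against 7242 to 7376). Control 1 was the lowest library for 30.8% of all detected genes, the largest share, so these low sums are not particular to those lists. Control 4 was highest for Slc16a1 (64.5 CPM against 57.9 to 58.5).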

How the results depend on the processing

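The number of detected genes, 11350, was 11969 at 0.5 CPM, 9537 at 5 CPM and 10981 with all counts as the denominator, and ran from 11400 to 11454 without 1 library. The median level of the detected genes, 33.0 CPM, moved to 24.9 with all counts as the denominator and to 41.5 without ribosomal protein and mitochondrial genome genes in the total, and ran from 32.2 to 33.4 without 1 library. For the 350 genes named, all counts as the denominator lowered levels to a median of 0.719 times, and the total without ribosomal and mitochondrial genes raised them to 1.3 times. The BCV ran from 0.134 to 0.197 without 1 library and was 0.146 with the GC offset. Under the other scalings, filters and tools run it stayed between 0.168 and 0.180, the median of edgeR's gene-wise values, added after seeing the data, being the lowest. By coding length 24 of the 39 ordered sets kept their order and 15 did not. No paired analysis was possible because only the control group was used and no test between groups was made. Libraries of 10148917 to 16356904 protein-coding counts leave genes under 1 CPM resting on about 10 to 16 counts or fewer.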

Other observations

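Genes of antigen receptors fall outside the protein-coding rows and were scaled by the same totals. Trbc2, Trac and Trbc1, the constant genes of the alpha beta T cell receptor, had 299, 256, 262 and 241, 213, 259, 235 and 278 and 171, 135, 212 and 152 CPM in control 1 to control 4. Trdc and Trgc1, constant genes of the gamma delta receptor, had 0.347, 0.985, 1.84 and 0.611 and 0.0866, 0, 0.381 and 0.245 CPM. Of the immunoglobulin constant genes other than Ighm, Igkc had 1.82, 2.17, 1.4 and 0.917 CPM and Ighd 1.3, 0.591, 3.68 and 1.41 CPM.

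Outside the lists, the ribosome, the mitochondrial genome and the histones, the 20 highest genes per kilobase were led by Eef1a1, Tmsb4x, Actb, Eef2, Ptma and Tpt1. Actb had 4278, 5382, 4383 and 6439.8 CPM, and Tmsb4x, which binds actin monomers, 4437, 2429.9, 5404 and 3029 CPM. Coro1a, which T cells need for survival, had 1094, 1555, 719 and 1263 CPM with its lowest value in control 3. Ifi27l2a, an interferon-induced gene, was among these 20 genes with 231, 209.7, 272 and 204 CPM, and B2m, the light chain of MHC class I, had 315, 258, 504 and 351 CPM. Naming these genes followed from their values.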
